A study of Mus musculus with 8 samples.

Results

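The comparison described here sets the 2 arrays of CH310T1/2 cells carrying Erg-010 under the Col2 promoter on day 1 of micromass culture against the 2 arrays of the same cells carrying a control plasmid on day 1. These 4 arrays, of 8 in the series, were taken by their sample titles, and no measured value was used to choose them. CH310T1/2 is a mouse mesenchymal cell line that can be turned towards cartilage, fat or muscle in culture. In micromass culture the cells are plated at high density in a small spot, which favours cartilage formation. All 4 groups of the study were electroporated with plasmid. They are Erg day 0, control day 0, Erg day 1 and control day 1, with 2 arrays each, and on day 0 the Erg plasmid carried the CMV promoter in place of the Col2 promoter. The labels number the arrays of a group 1 and 2 and do not say whether separate cultures were used, and the spread behind every p-value may thus be only technical. The Col2 promoter is used by cells that express type II collagen, so the plasmid can be read only in cells that have switched that promoter on, and fewer such cells and less RNA per cell cannot be told apart in bulk RNA.

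Erg belongs to the ETS family of transcription factors, which bind DNA at sites built around a GGAA core. It is best known from endothelial and blood-forming cells. In the limb it is expressed where joints form and in articular cartilage, whose surface cells make lubricin (Prg4). Cartilage formation itself is led by Sox9 with Sox5 and Sox6, which switch on type II collagen (Col2a1) and aggrecan (Acan). Maturing growth plate cartilage then turns on Ihh, Runx2 and type X collagen (Col10a1). The title of the series places the question in the choice of fate by cartilage cells during knee joint formation.

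The median log2 intensities of the 4 arrays lay between 6.64 and 6.70. The authors' RMA normalization makes the distributions of arrays alike, so these medians do not measure agreement between arrays. Erg replicate 1 and control replicate 1 were the closest pair, with an SD of 0.162 for their log2 difference over 45037 probe sets. Erg replicate 2 and control replicate 1 followed at 0.193, and the 2 Erg arrays at 0.233. The 2 control arrays were 0.335 apart. Control replicate 2 stood apart from the other 3 arrays. It was the array farthest from the mean of the others for 48.5% of probe sets, against 17.1% for Erg replicate 1, 19.5% for Erg replicate 2 and 14.8% for control replicate 1. It read at least 2-fold away from that mean in 952 probe sets, above it in 933 and below it in 19. For Erg replicate 1, Erg replicate 2 and control replicate 1 these numbers of probe sets were 175, 66 and 9. Gene differences and list medians below are therefore also given without control replicate 2, that is, against control replicate 1 alone. This was done at least where it moved them by more than 1.5 times or turned their sign. Differences of a gene's other probe sets are given with all 4 arrays unless stated, and some of them turned sign without control replicate 2.

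**Figure D1:**
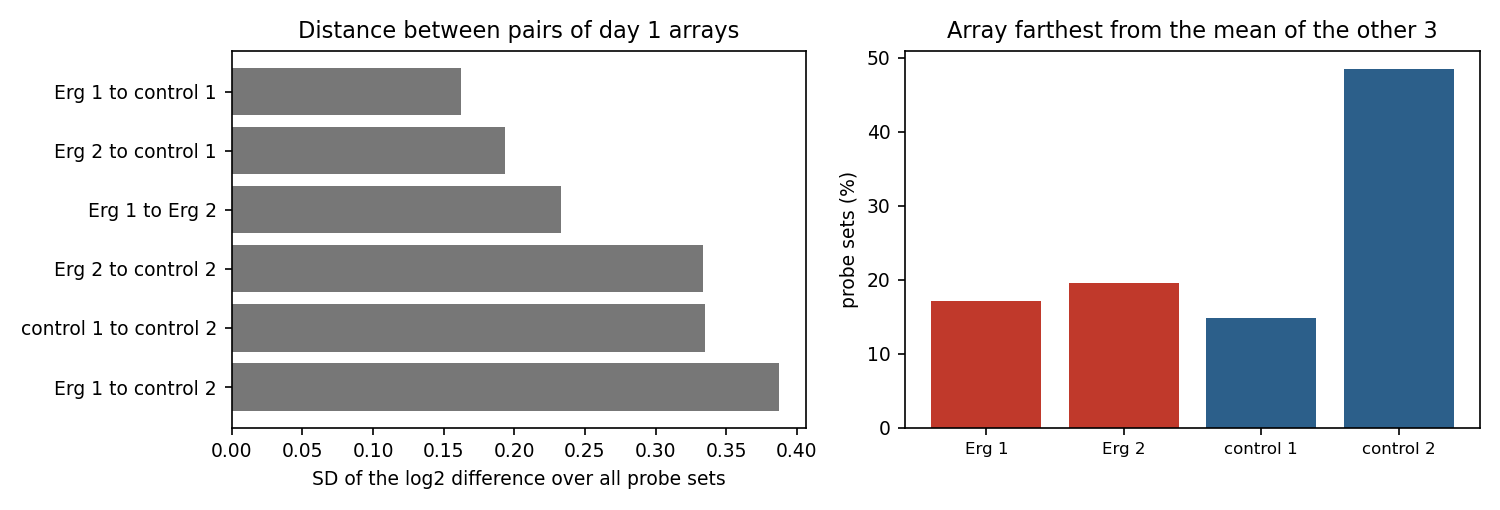
The left panel gives the SD of the log2 difference between each pair of day 1 arrays over all probe sets, and the right panel the percentage of probe sets for which each array was farthest from the mean of the other 3. The 3 widest pairs all hold control replicate 2, which was the farthest array for 48.5% of probe sets.

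The Erg transcript itself was not higher on the Erg arrays. Probe set 1440244_at read 8.53 and 7.68 in Erg arrays, against 8.43 and 8.50 in control arrays. The difference was -0.36 with an SE of 0.42 and a 95% interval of -1.37 to 0.65, so the groups overlapped and a change of 1.5-fold in either direction lay inside the interval. The second probe set, 1425370_a_at, read 7.22 and 6.81 in Erg arrays and 7.21 and 7.01 in control arrays, a difference of -0.09 with an SE of 0.20, and of -0.20 without control replicate 2. The sequence of the plasmid insert was not given in the sources used here. Whether these probe sets can read RNA made from it was not tested, so they do not check the labels.

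Col2a1, whose promoter drove the insert, read 10.25 and 9.18 in Erg arrays, against 10.21 and 9.21 in control arrays. The group means were equal to within 0.01, with a 95% interval of -0.98 to 0.98, while the difference was -0.50 without control replicate 2. In both groups the array numbered 1 read about 1 log2 unit above the array numbered 2, so the level of the endogenous gene differed within each group.

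**Figure D2:**
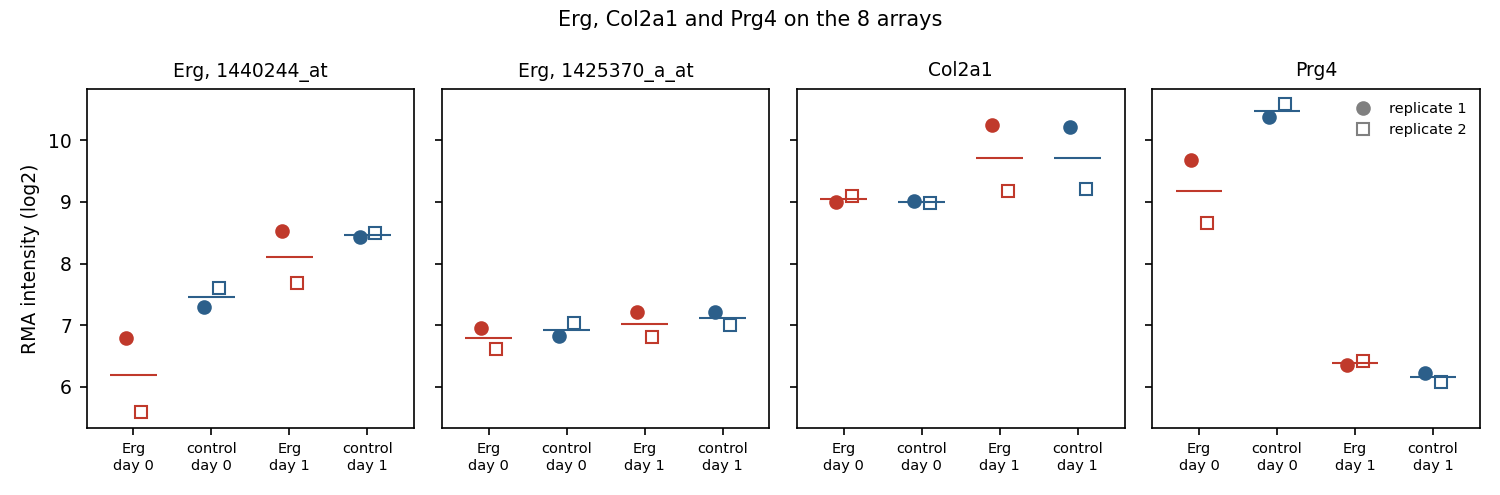
Normalized intensity (log2) of both Erg probe sets, Col2a1 and Prg4 on all 8 arrays by day and plasmid, with Erg left of control, filled circles for replicate 1, open squares for replicate 2 and a line at the group mean. On day 1 the Erg and control points overlap for both Erg probe sets and for Col2a1, and Prg4 is far below its day 0 values in both groups.

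No probe set passed the test on day 1. In limma, 0 of 45037 probe sets had an adjusted p under 0.05, and the smallest adjusted p was 1. At an unadjusted p under 0.05 there were 616 probe sets, 1.37% of those tested. Of these, 134 read higher in Erg arrays (0.298%) and 482 lower (1.07%). This split depended on single arrays, with 221 higher and 203 lower without Erg replicate 2, and 47 and 599 with the replicate number as a block. The authors' deposited table held the same counts of 616, 134 and 482, with a q of 1 for every probe set. The 95% interval reached a median of 0.41 log2 units to either side, so a difference under that size lay within the error for about as many probe sets as not. With 2 arrays against 2, an exact permutation test cannot go below a p of 0.333. The genes below are therefore described by their values, and none is called changed.

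Groups do not overlap when both Erg arrays lie on one side of both control arrays. Among 20680 gene symbols, each represented by its brightest probe set, this was so with Erg higher for 21.2% and with Erg lower for 9.56%. The median difference over all symbols was 0.04, and 62.1% of symbols had a difference above 0. Without control replicate 2 that median was 0.01. A difference of at least 1.5-fold was rare and one-sided, with 31 probe sets higher in Erg arrays (0.0688%) and 968 lower (2.15%). Control replicate 2 was the farthest array in 959 of the 968 lower ones (99.1%) and in 22 of the 31 higher ones. It was likewise the farthest array in 417 of the 482 probe sets that read lower at an unadjusted p under 0.05, and in 81 of the 134 that read higher. Its part in these counts beyond that was not tested.

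**Figure D3:**
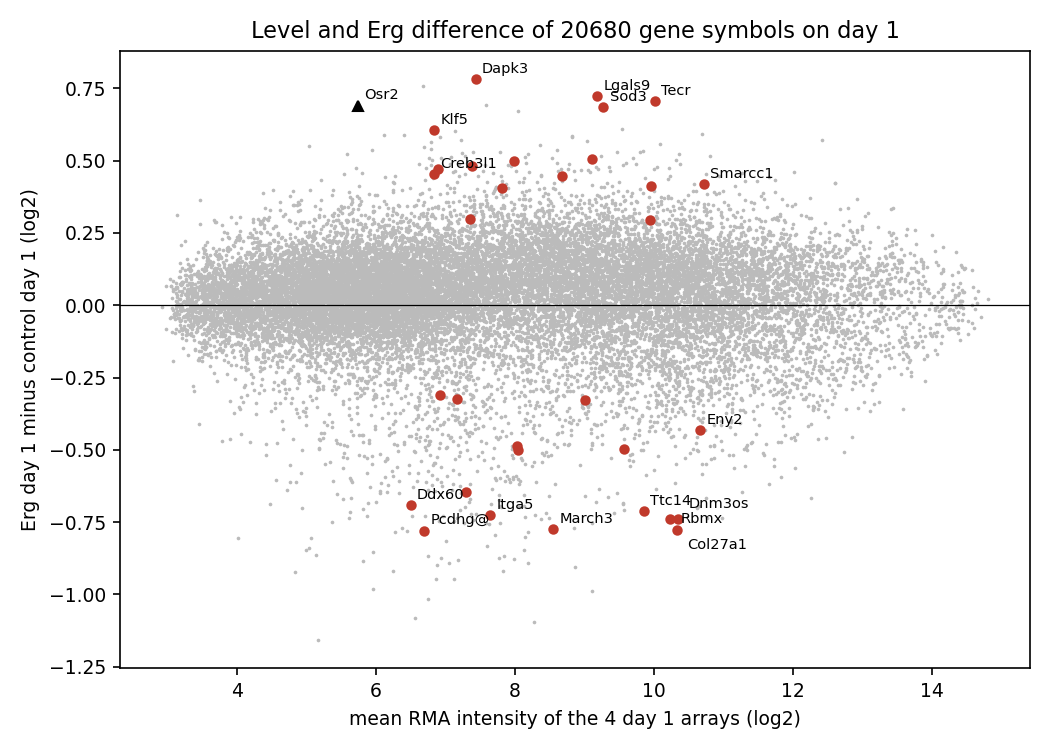
Each grey point is 1 of 20680 gene symbols, placed by the mean normalized intensity of the 4 day 1 arrays (log2) and by Erg minus control (log2). Red points are the genes with the smallest p or largest difference whose groups do not overlap and whose brighter group reaches the median intensity, and the triangle is Osr2. Grey points beyond them have overlapping groups, a dimmer signal or no gene name of their own.

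Among the genes that read higher with Erg, Creb3l1 had the smallest p. It encodes a membrane-bound transcription factor of the endoplasmic reticulum that drives collagen and secretory genes. It read 7.02 and 7.11 in Erg arrays, against 6.61 and 6.61 in control arrays. The groups were well separated, by 0.45 (SE 0.11, 95% interval 0.19 to 0.72, 1.37-fold), and the difference without control replicate 2 was 0.45 as well. Bmyc, a Myc relative, showed the same evenness at 7.5 and 7.5 in Erg arrays and 7.21 and 7.19 in control arrays, a difference of 0.30 (SE 0.11). Rcan1, a regulator of the phosphatase calcineurin, read 10.08 and 10.10 in Erg arrays and 9.84 and 9.75 in control arrays, a difference of 0.30 (SE 0.11). For these 3 genes neither control array stood out. A second Rcan1 probe set differed by 0.09, with overlapping groups.

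The other genes of this set owed part of their difference to control replicate 2. Klf5, a zinc finger factor of growth and differentiation, read 7.18 and 7.10 in Erg arrays and 6.77 and 6.30 in control arrays, a difference of 0.60 (SE 0.18) and of 0.37 without control replicate 2. Its other probe sets gave -0.19 and 0.03 with overlapping groups, and 0.10 and -0.04 without control replicate 2. The difference thus rests on 1 of 3 probe sets. Chpf, which polymerizes the chondroitin sulfate chains carried by aggrecan and other proteoglycans, read 8.24 and 8.24 in Erg arrays and 7.89 and 7.59 in control arrays. It differed by 0.50 (SE 0.18), and by 0.35 without control replicate 2. Acy3, an aminoacylase, read 7.07 and 7.19 in Erg arrays, against 6.80 and 6.52 in control arrays, a difference of 0.47. The Acy3 difference was 0.33 without control replicate 2.

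The rest of the set had mixed roles. Tbc1d25, a Rab GTPase activating protein linked to autophagy, differed by 0.48. Asna1, the ATPase that hands tail-anchored proteins to the endoplasmic reticulum, differed by 0.51. Atg9a, the transmembrane protein of autophagosome formation, differed by 0.41. Arhgef7, an exchange factor for Rac and Cdc42, differed by 0.45, Marcksl1, an actin-binding protein, by 0.41, and Smarcc1, a core subunit of the SWI/SNF chromatin remodeller, by 0.42. The 3 other Smarcc1 probe sets gave smaller differences of 0.30, 0.05 and 0.04, with overlapping groups. Other Marcksl1 probe sets gave 0.34 without overlap, and 0.17 and 0.03 with overlapping groups. These were 0.19, 0.07 and 0.07 without control replicate 2. Without control replicate 2 the differences of these 6 genes lay between 0.23 and 0.32.

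The largest differences upward belonged to genes whose controls were far apart. Dapk3, a kinase of cell death and myosin phosphorylation, read 7.78 and 7.87 in Erg arrays, against 7.42 and 6.67 in control arrays. Its difference of 0.78 (SE 0.31, 1.72-fold) became 0.41 without control replicate 2, and its second probe set differed by 0.13. Lgals9 (galectin 9) read 9.28 and 9.82 in Erg arrays, against 9.13 and 8.52 in control arrays. Tecr, the last reductase of very long chain fatty acid elongation, read 10.33 and 10.41 in Erg arrays, against 10.09 and 9.24 in control arrays. Sod3, the extracellular superoxide dismutase, read 9.40 and 9.83 in Erg arrays, against 9.22 and 8.65 in control arrays. The differences were 0.72 for Lgals9, 0.71 for Tecr and 0.68 for Sod3, and the limma 95% interval of each included 0. Without control replicate 2 these 3 differences were between 0.28 and 0.41.

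Col27a1, a fibrillar collagen of cartilage, led the genes that read lower with Erg. It read 9.95 and 9.93 in Erg arrays, against 10.36 and 11.08 in control arrays. The groups did not overlap and differed by -0.78 (SE 0.23, 95% interval -1.31 to -0.24, 0.583-fold), with -0.42 without control replicate 2. A second Col27a1 probe set differed by -0.32, again without overlap, and by -0.15 without control replicate 2. Cd46, a membrane regulator of complement, read 6.77 and 6.77 in Erg arrays and 7.02 and 7.14 in control arrays, a difference of -0.31 (SE 0.12). Dpm3, a subunit of dolichol phosphate mannose synthase, read 6.92 and 7.08 in Erg arrays and 7.31 and 7.35 in control arrays, a difference of -0.32. Without control replicate 2 these differences were -0.25 for Cd46 and -0.30 for Dpm3.

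Most other lower genes read highest in control replicate 2. Ttc14 read 9.5 and 9.51 in Erg arrays, against 9.84 and 10.59 in control arrays. It differed by -0.71 and by -0.33 without control replicate 2, and all 10 of its probe sets gave a difference below 0. Eny2, a small subunit shared by the SAGA and mRNA export complexes, read 10.54 and 10.35 in Erg arrays, against 10.71 and 11.05 in control arrays. Its difference was -0.43, and -0.26 without control replicate 2, while 1 of its 5 other probe sets read higher in Erg arrays by 0.11. Ddx60, an RNA helicase induced by interferon, read 5.94 and 6.37 in Erg arrays, against 6.62 and 7.08 in control arrays. Its difference was -0.69 (SE 0.26), and -0.46 without control replicate 2. The second Ddx60 probe set gave -0.08, and 0.04 without control replicate 2. Phxr4 differed by -0.65, Ang4, a secreted ribonuclease, by -0.50, Zfp101, a zinc finger gene, by -0.50, and Rassf3, a Ras association domain protein, by -0.33. A second Ang4 probe set, averaging 5.17 in Erg arrays and 5.25 in control arrays, differed by only -0.08. Srp54b, a signal recognition particle subunit with near-identical copies that could share its probes, differed by -0.49. Without control replicate 2 these were -0.40 for Phxr4, -0.32 for Ang4, -0.21 for Zfp101, -0.26 for Rassf3 and -0.20 for Srp54b.

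For several of the largest differences downward the Erg arrays were close to control replicate 1. Rbmx, a nuclear RNA-binding protein, read 9.82 and 9.91 in Erg arrays, against 9.93 and 11.28 in control arrays. Dnm3os, a long non-coding RNA that hosts microRNAs of skeletal development, read 9.96 and 9.99 in Erg arrays, against 10.10 and 11.32 in control arrays. The gamma protocadherin cluster Pcdhg@ read 6.44 and 6.17 in Erg arrays, against 6.47 and 7.69 in control arrays. Their differences were -0.74, -0.74 and -0.78, and without control replicate 2 they were -0.06, -0.13 and -0.17. The ubiquitin ligase March3 gave -0.77 and -0.25 in the same way. Itga5, a subunit of the fibronectin receptor, differed by -0.73, and by -0.42 without control replicate 2. However, 2 of its 3 other probe sets read higher in Erg arrays, by 0.24 and 0.18, or 0.18 and 0.03 without control replicate 2.

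**Figure D4:**
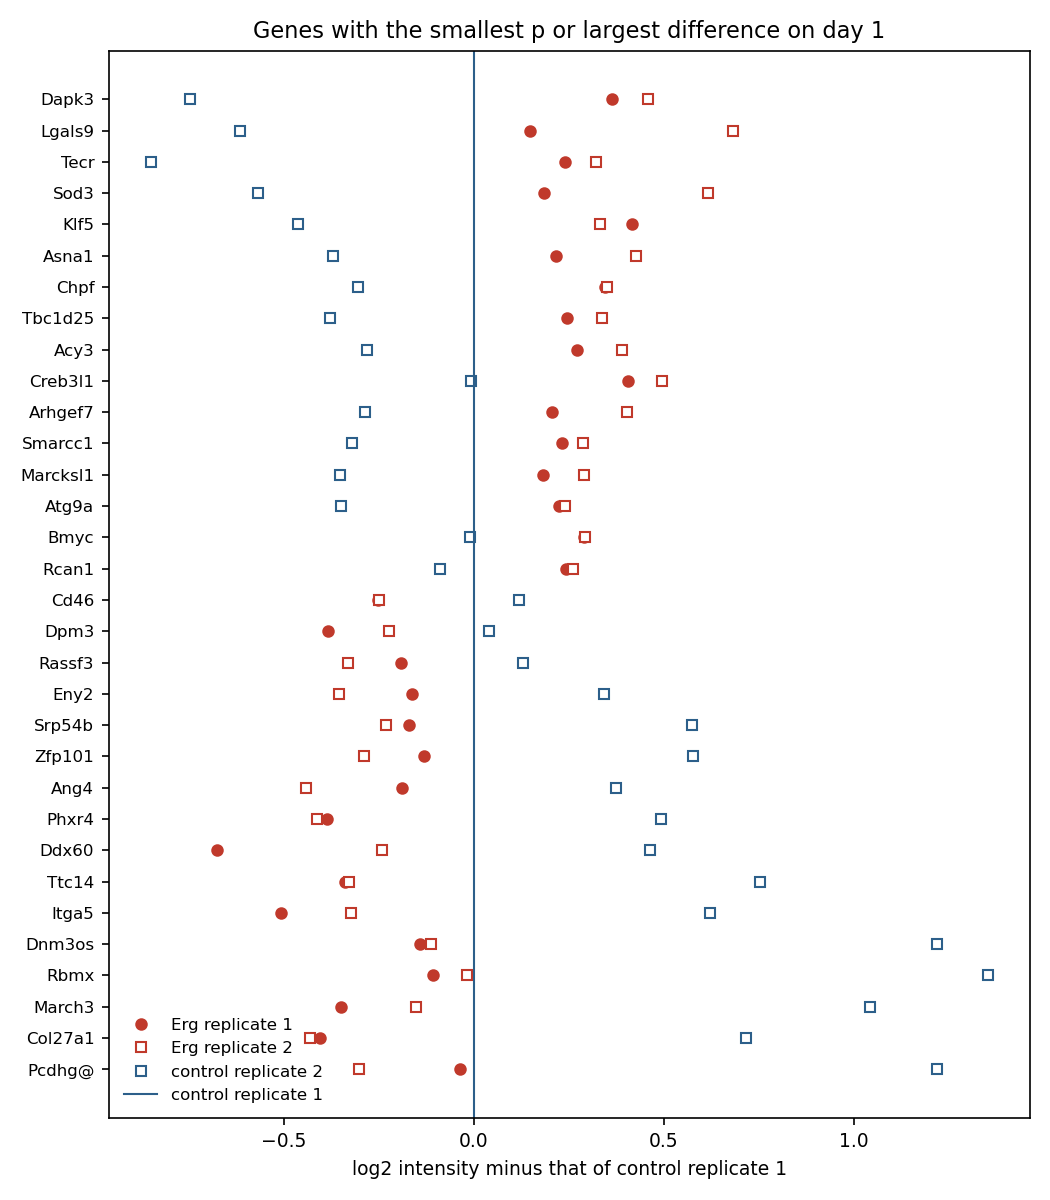
Log2 intensity of each gene on Erg replicate 1, Erg replicate 2 and control replicate 2, minus that on control replicate 1 (the vertical line), with genes that read higher with Erg above those that read lower. For Creb3l1, Bmyc and Rcan1 the control arrays coincide or nearly so, while for Rbmx, Dnm3os and Pcdhg@ control replicate 2 lies over 1 log2 unit from the other 3 arrays.

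The kind of transcript differed between the higher and lower ends. Of the 482 probe sets lower at an unadjusted p under 0.05, 294 are linked by the array's annotation to no RefSeq transcript, against 10 of the 134 higher ones and 20.3% of all probe sets. Over all probe sets with no RefSeq transcript, 14.9% read higher and 21.0% lower without overlap. Over those linked to a RefSeq messenger RNA, 20.2% read higher and 10.2% lower. The median difference was -0.02 for the first class and 0.04 for messenger RNAs, and without control replicate 2 it was -0.02 and 0.004.

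The joint list holds 19 measured genes, of which 7 read higher and 2 lower without overlap, beside 21.2% and 9.56% of all symbols. Its median difference was 0.09, and 0.04 without control replicate 2. Osr2, an odd-skipped zinc finger factor expressed in developing joints, read 5.99 and 6.18 in Erg arrays, against 5.55 and 5.23 in control arrays. Both Erg arrays lay above both controls, by 0.69 (SE 0.20, 95% interval 0.22 to 1.16, 1.61-fold), and by 0.53 without control replicate 2. These Osr2 values were dim, all below the median intensity of 6.67, and control replicate 2 lay below that array's first quartile of 5.27. The second Osr2 probe set, dimmer still, also read higher in Erg arrays, by 0.24. Its relative Osr1 read 13.22 and 13.27 in Erg arrays, against 13.18 and 12.68 in control arrays, a difference of 0.32 that was 0.07 without control replicate 2.

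Tnc, the matrix protein tenascin C of joint and tendon tissue, read 9.39 and 9.26 in Erg arrays, against 9.12 and 8.40 in control arrays. It differed by 0.57 (SE 0.29), by 0.21 without control replicate 2, and its second probe set gave -0.39 with overlapping groups, so its direction depended on the probe set. Prg4 read 6.35 and 6.42 in Erg arrays, against 6.22 and 6.09 in control arrays, a difference of 0.23 (SE 0.31). The growth factor Gdf5, which marks the forming joint, read 5.14 and 5.61 in Erg arrays, against 5.33 and 5.29 in control arrays. Wnt9a, a Wnt ligand of the joint interzone, read 6.29 and 6.14 in Erg arrays, against 6.23 and 6.03 in control arrays. The groups overlapped for both, with differences of 0.07 for Gdf5 and 0.09 for Wnt9a that were 0.04 and -0.013 without control replicate 2. Creb5, a transcription factor of articular cartilage, read 5.55 and 5.48 in Erg arrays, against 5.62 and 5.89 in control arrays, a difference of -0.24 that was -0.10 without control replicate 2.

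The cartilage list differed little between the plasmids. Of 22 measured genes, 3 read higher and 1 lower without overlap, beside 21.2% and 9.56% of all symbols. The median difference was 0.02, or 0.01 without control replicate 2 and -0.03 after cyclic loess scaling. Sox9 read 11.69 and 11.43 in Erg arrays, against 11.58 and 11.19 in control arrays, a difference of 0.17 (SE 0.20) that was -0.020 without control replicate 2. Sox5 differed by 0.14 and Sox6 by 0.15, which were -0.016 and 0.10 without control replicate 2, and for Sox6 alone of these 3 the groups did not overlap. Acan read 6.38 and 6.30 in Erg arrays, against 6.37 and 6.24 in control arrays, a difference of 0.04 that was -0.027 without control replicate 2. Chad (chondroadherin) and Matn4 (matrilin 4) were the other members without overlap on the higher side, at 0.13 and 0.34 (0.17 and 0.14 without control replicate 2), and Col27a1 was the one on the lower side.

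Of the 19 genes of hypertrophic cartilage and bone, 4 read higher and none lower without overlap, beside 21.2% and 9.56% of all symbols. The list median of 0.05 was -0.03 without control replicate 2. Pth1r, the receptor for parathyroid hormone and its related peptide, which holds growth plate cells back from maturing, read 7.47 and 7.61 in Erg arrays, against 7.12 and 6.92 in control arrays. It differed by 0.51 (SE 0.21), and by 0.41 without control replicate 2. The ligand Pthlh read 7.77 and 8.40 in Erg arrays, against 8.05 and 8.19 in control arrays, and differed by -0.03 with overlap, or by 0.036 without control replicate 2. Runx2 read 11.17 and 11.09 in Erg arrays, against 11.12 and 11.05 in control arrays, a difference of 0.05 that was 0.011 without control replicate 2. Col10a1 and Ihh differed by -0.04 and 0.02 with overlapping groups, and by -0.24 and -0.30 without control replicate 2. Dlx5, a homeobox factor of bone formation, and Alpl, the mineralizing phosphatase, read higher in Erg arrays by 0.36 and 0.17, and by 0.14 and 0.20 without control replicate 2.

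Other ETS factors differed little. Of 24 measured, 5 read higher and none lower without overlap, beside 21.2% and 9.56% of all symbols. The median of 0.10 was -0.01 without control replicate 2. Fli1, the closest relative of Erg, read 10.01 and 9.67 in Erg arrays, against 9.79 and 9.79 in control arrays, a difference of 0.05. Ets1 read 11.02 and 10.80 in Erg arrays, against 10.91 and 11.02 in control arrays, a difference of -0.05 that was 0.006 without control replicate 2. Etv4, which follows FGF signalling, differed by 0.13 and Elf2 by 0.16. A second Etv4 probe set read lower in Erg arrays without overlap, by -0.26, and by -0.13 without control replicate 2. The direction of Etv4 thus depended on the probe set.

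Among signalling pathways the hedgehog list had the largest share of non-overlapping members. Of 17 genes, 8 (47.1%) read higher and 1 lower, beside 21.2% and 9.56% of all symbols, with a median of 0.18 that was 0.05 without control replicate 2. Sufu, the inhibitor that holds Gli factors in check, read 8.57 and 8.67 in Erg arrays, against 8.46 and 8.13 in control arrays, a difference of 0.33 that was 0.16 without control replicate 2. Its 2 other probe sets gave -0.15 and -0.07. Hhip, a hedgehog-binding inhibitor at the cell surface, read 5.21 and 5.32 in Erg arrays, against 5.02 and 5.0 in control arrays, a difference of 0.25. These values were dim, near or below the first quartiles of the arrays (5.27 to 5.30). Its 3 other probe sets, dimmer still, gave 0.04, 0.14 and 0.06. The first of these had overlapping groups and gave -0.10 without control replicate 2. Dhh, a ligand, differed by 0.20.

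In the BMP and TGF-beta list 9 of 35 genes read higher and 2 lower, beside 21.2% and 9.56% of all symbols, with a median of 0.11 that was 0.03 without control replicate 2. Smad6, an inhibitory Smad, read 11.06 and 10.90 in Erg arrays, against 10.62 and 10.43 in control arrays, a difference of 0.45 that was 0.36 without control replicate 2. The receptor Bmpr2 read 11.95 and 11.96 in Erg arrays, against 11.93 and 11.48 in control arrays, so that 0.25 became 0.03 without control replicate 2. Grem1, a secreted BMP antagonist, read 11.16 and 11.15 in Erg arrays, against 11.22 and 11.48 in control arrays, a difference of -0.19 that was -0.058 without control replicate 2.

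In the Wnt list 7 of 34 genes read higher and 1 lower, beside 21.2% and 9.56% of all symbols. Its median of 0.09 was -0.006 without control replicate 2. Fzd7, a Wnt receptor, read 10.57 and 10.62 in Erg arrays, against 10.39 and 10.24 in control arrays, a difference of 0.28. Nkd1 and Nkd2, feedback inhibitors of Dishevelled, differed by 0.20 and 0.36, and Wnt4, a ligand of the joint interzone, by -0.17, or by -0.29 without control replicate 2. In the Notch list 3 of 17 genes read higher and none lower, with a median of 0.14 that was -0.01 without control replicate 2, and Notch3 differed by 0.24. In the list of FGF ligands, receptors and ERK feedback genes 1 of 18 read higher and none lower. It was Etv4, whose direction depended on the probe set.

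Of 29 genes of hypoxia and glycolysis, 13 (44.8%) read higher and none lower without overlap, beside 21.2% and 9.56% of all symbols. The list median of 0.16 was 0.09 without control replicate 2. Both Erg arrays lay above control replicate 1 for 18 of the 29, against 31.9% of all symbols. Pkm2 (pyruvate kinase) read 11.01 and 10.98 in Erg arrays, against 10.71 and 10.09 in control arrays, a difference of 0.59, and 0.29 without control replicate 2. Egln1, the prolyl hydroxylase that marks hypoxia-inducible factor for destruction, read 10.54 and 10.34 in Erg arrays, against 10.24 and 10.13 in control arrays, a difference of 0.25. Hk1 (hexokinase) differed by 0.35 and Pfkp (phosphofructokinase) by 0.23, and without control replicate 2 by 0.04 and 0.11.

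Of 22 genes of tendon and fibrous matrix, 10 (45.5%) read higher and none lower, beside 21.2% and 9.56% of all symbols, with a median of 0.15 that was 0.04 without control replicate 2. Col5a1, a fibril-initiating collagen chain, read 11.82 and 11.77 in Erg arrays, against 11.61 and 11.30 in control arrays, a difference of 0.34 that was 0.19 without control replicate 2. Fbn1 (fibrillin) differed by 0.24 and Col6a1, a microfibrillar collagen chain, by 0.34, and without control replicate 2 by 0.09 and 0.19. Among matrix proteases and their inhibitors 7 of 24 read higher and none lower. Adamts12, a metalloprotease with thrombospondin repeats, read 9.40 and 9.82 in Erg arrays, against 9.16 and 9.13 in control arrays, a difference of 0.46 that was 0.03 in its second probe set. Mmp16 and Timp1 differed by 0.23 and 0.17, and by 0.09 and 0.12 without control replicate 2.

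Immune and stress lists were mixed. In the interferon list 6 of 33 genes read higher and 4 lower, with a median of 0.01, or -0.03 after cyclic loess scaling. Ifi44 read 5.41 and 5.22 in Erg arrays, against 4.89 and 4.63 in control arrays, a difference of 0.55 (SE 0.22). Ifi27l2a read 8.0 and 7.38 in Erg arrays, against 8.06 and 8.14 in control arrays, a difference of -0.41. In the inflammatory list 8 of 30 read higher and 2 lower, and the chemokine Ccl2 differed by -0.31, which was -0.03 without control replicate 2. None of 17 p53 targets read higher without overlap and 4 read lower, beside 21.2% and 9.56% of all symbols, and the median of 0.04 was -0.10 without control replicate 2. The differences were small: Bax, which promotes cell death, differed by -0.11, Ccng1 by -0.09, Ei24 by -0.13, which was -0.058 without control replicate 2, and Trp53inp1 by -0.12. Of 23 immediate early genes 4 read higher and 1 lower, with a median of 0.16 that was -0.02 without control replicate 2. Junb differed by 0.37, Ier2 by 0.29 and Egr3 by -0.11, which were 0.087, 0.03 and -0.14 without control replicate 2.

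Several cell programmes varied more between the arrays of a group than between plasmids. The mean level of 32 cell cycle genes was 9.18 and 7.88 in Erg arrays, against 8.49 and 8.09 in control arrays. The 2 Erg arrays were the highest and the lowest of the 4. Both arrays numbered 1 lay above both numbered 2 for 27 of the 32 genes, against 21.3% of all symbols. None read higher with Erg without overlap and 1, Mcm3, read lower. Mcm3 was dim, at 4.68 to 4.78, and differed by only -0.08. The genes in the rest of this account of array differences were chosen after their values were seen. Mki67, the proliferation antigen, read 9.36 and 7.15 in Erg arrays, against 8.34 and 7.25 in control arrays. Top2a, the topoisomerase of dividing cells, read 10.64 and 8.95 in Erg arrays, against 9.74 and 8.87 in control arrays. The median difference of the list was 0.23, but it was -0.44 without Erg replicate 1 and 0.93 without Erg replicate 2, and 0.00 without control replicate 2, so its sign depended on a single array.

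In the contractile, sterol and stress lists the arrays numbered 1 also had higher means than those numbered 2. There the lowest array was control replicate 2, and not Erg replicate 2. Both arrays numbered 1 lay above both numbered 2 for 16 of 20 contractile genes, 16 of 23 genes of sterol and fatty acid synthesis and 16 of 25 genes of the unfolded protein, amino acid and heat stress list. The share of all symbols was 21.3%. Actg2, a smooth muscle actin, read 10.27 and 8.50 in Erg arrays, against 10.15 and 8.51 in control arrays. Tagln, a smooth muscle actin-binding protein, read 11.45 and 9.98 in Erg arrays, against 11.13 and 10.39 in control arrays. Both genes spanned over 0.6 log2 units within either group, and their differences between plasmids were 0.06 and -0.05, or -0.77 and -0.42 without control replicate 2. Without overlap, 1 contractile gene (Lmod1), 4 sterol genes and 1 stress gene (Creld2) read higher with Erg, and 1 stress gene (Ddit3) read lower. The shares of all symbols were 21.2% higher and 9.56% lower.

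**Figure D5:**
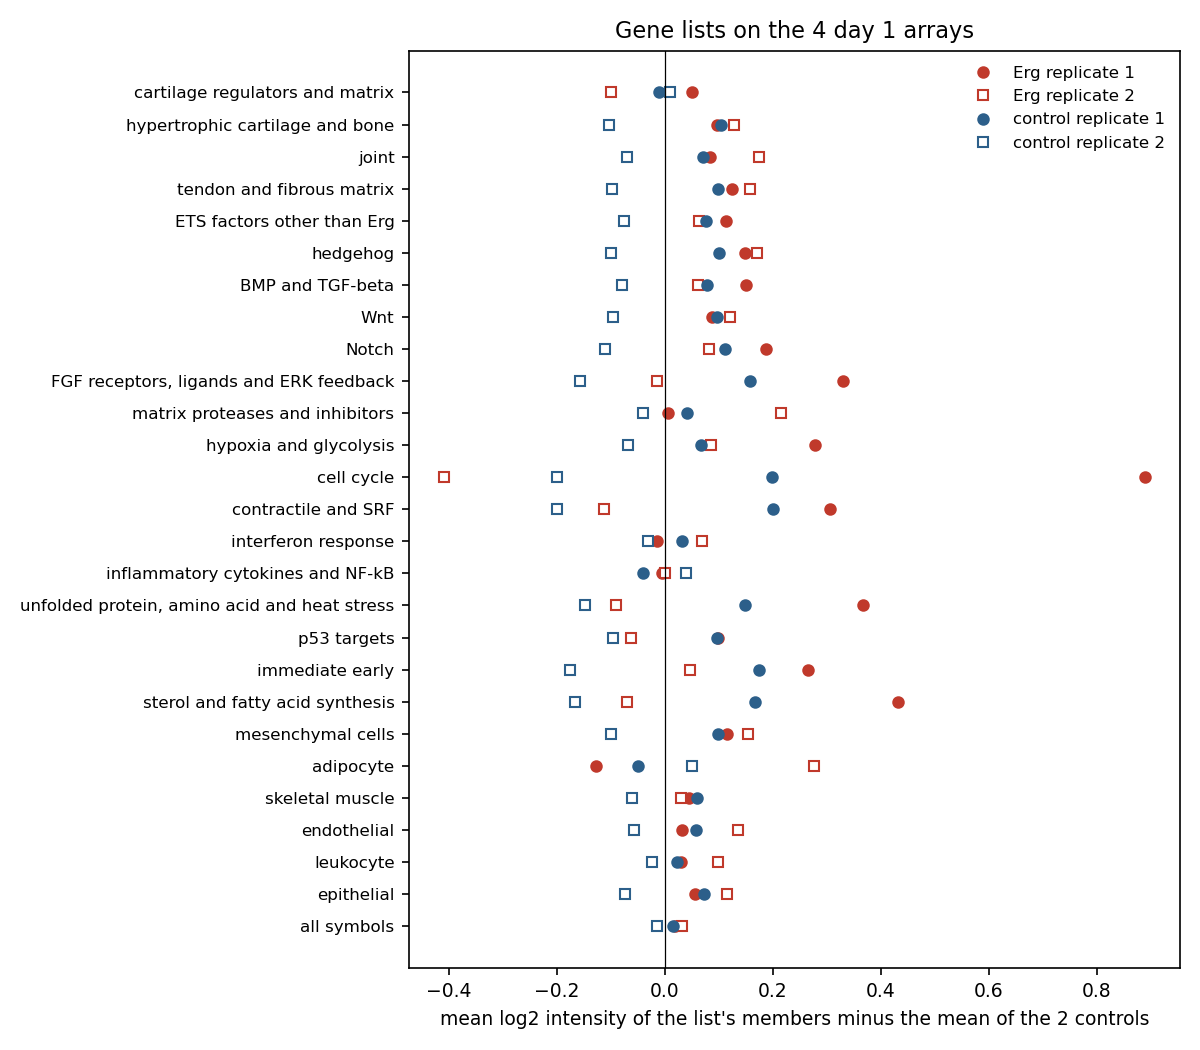
Mean log2 intensity of the members of each list on the 4 day 1 arrays, minus the mean of the 2 control arrays, with all symbols in the bottom row. The 2 Erg arrays lie on opposite sides of the controls for the cell cycle list, and control replicate 2 is the lowest array for the hedgehog, tendon and mesenchymal lists.

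Markers of the cell line were present on all 4 arrays. Of 20 mesenchymal markers, 17 read above the median intensity in every array, beside 11595 of 20680 symbols. Prrx1 lay between 13.3 and 13.49 and Vim between 14.45 and 14.67. The mesenchymal list had 9 members (45%) higher and none lower without overlap, beside 21.2% and 9.56% of all symbols. Its median was 0.12, and 0.05 without control replicate 2. Snai1, a repressor of epithelial genes, read 8.36 and 8.24 in Erg arrays, against 8.13 and 7.69 in control arrays, a difference of 0.39 that was 0.18 without control replicate 2. Pdgfrb, a receptor of connective tissue cells, read 12.99 and 12.99 in Erg arrays, against 12.88 and 12.64 in control arrays, a difference of 0.23 that was 0.11 without control replicate 2. Of the cartilage markers, Sox9, Col2a1 and Col9a1 read well above the median of 6.67, while Acan (6.24 to 6.38), Matn1 (4.0 to 4.15) and Hapln1 (4.03 to 4.10) were below it on all 4 arrays.

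Most markers of other cell types were below the median intensity on at least 1 array, with 6 of 20 endothelial, 5 of 15 leukocyte and 5 of 18 epithelial markers above it on all 4. Among all symbols, 11595 of 20680 were above it on all 4. Cdh5 and Pecam1 of endothelium read between 4.82 and 5.35, Ptprc of leukocytes between 4.31 and 4.43, and Cdh1 of epithelium between 4.31 and 4.78, below or about the first quartile of the arrays (5.27 to 5.30). Other members were bright in their brightest probe set, with Laptm5 of leukocytes at 8.15 to 8.70 and Epcam of epithelium at 9.42 to 10.05. The other Epcam probe set averaged only 5.27 in Erg arrays and 5.30 in control arrays. Group means of the other Laptm5 probe sets lay between 4.13 and 6.69, so both levels depended on the probe set. The mean of the 20 endothelial markers was 6.41 and 6.51 in Erg arrays, against 6.44 and 6.32 in control arrays. For the 15 leukocyte markers it was 6.17 and 6.24 in Erg arrays, against 6.17 and 6.12 in control arrays. For the 18 epithelial markers it was 5.96 and 6.02 in Erg arrays, against 5.98 and 5.83 in control arrays. Control replicate 2 was the lowest array in each of these 3 lists. The median differences were 0.11, 0.08 and 0.06, which were 0.00, 0.03 and -0.04 without control replicate 2. The counts higher and lower without overlap were 6 and 1 of 20, 2 and 1 of 15, and 4 and 2 of 18. The shares of all symbols were 21.2% and 9.56%. Skeletal muscle markers were split, with 4 of 20 higher and 4 lower. Of the 20, 4 read above the median intensity on all 4 arrays, among them Tnnc1 at 7.69 to 8.04. Myf5 and Myod1, the factors that start muscle formation, stayed between 3.21 and 3.29 and between 5.93 and 6.14.

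Fat cell markers were above the median intensity more often than endothelial, leukocyte or epithelial markers, and near the share of all symbols. Of 19 adipocyte genes 12 read above the median intensity on all 4 arrays, beside 11595 of 20680 symbols. The 12 included Pparg (10.15 to 10.5), the lead factor of fat cell formation, and Fabp4 (12.53 to 13.48). The mean of the list was 8.34 and 8.75 in Erg arrays, against 8.42 and 8.52 in control arrays, so the Erg arrays again lay on both sides of the controls. Without overlap, 3 genes read higher and none lower, beside 21.2% and 9.56% of all symbols. They were Cebpa by 0.43, Cebpb by 0.27 and Pck1 by 0.10, the last being dim at 4.49 to 4.65. Cebpa, a factor of fat cell maturation, read 8.93 and 9.25 in Erg arrays, against 8.79 and 8.52 in control arrays. The part of fat cell RNA in the differences between arrays was not tested.

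The Erg difference on day 1 was also set against that on day 0, where the plasmid carried the CMV promoter, so day and promoter cannot be told apart. For this difference of differences 0 of 45037 probe sets passed in limma, with a smallest adjusted p of 0.974, and 1100 (2.44%) had an unadjusted p under 0.05. Prg4 differed by 0.23 on day 1 and by -1.30 on day 0, a gap of 1.54. Osr2 differed by 0.69 on day 1 and by 0.14 on day 0, Tnc by 0.57 and -0.26, and Dapk3 by 0.78 and -0.34. On day 0 the groups overlapped for Osr2, Tnc and Dapk3. Tnc then read 8.61 and 9.27 in Erg arrays, against 9.18 and 9.23 in control arrays. Dapk3 read 8.17 and 7.39 in Erg arrays of day 0, against 8.13 and 8.13 in control arrays. The median of the interferon list was 0.01 on day 1 and 0.61 on day 0, where 30 of its 33 genes had a difference above 0, beside 44.9% of all symbols.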

How the data were processed

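Total RNA of 8 samples was measured on Affymetrix mouse whole-genome arrays. The deposited intensity values were normalized by the authors with RMA, and the workbook notes name Partek GS 6.6 for it while the series text names dChip of 2005. The deposited ratio, p-value and q-value columns are the authors' own limma comparisons and were used beside the present ones only. Signal over background could not be measured, since detection calls and raw images were not used here.

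Intensities were taken to log2. Group means were fitted with limma 3.58.1 in R 4.3.3 (lmFit, eBayes) over all 8 arrays and 45037 probe sets, with 4 residual and 2.78 prior degrees of freedom, with Benjamini-Hochberg adjustment over all probe sets (threshold 0.05). The fit was tested on simulated data. Every difference is Erg minus control in log2, its SE and 95% interval are from limma, and n is 2 arrays per group. Symbols and transcript links are those of the array's annotation, and of several probe sets for a symbol the one with the highest mean stood for it.

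The comparison, the 26 gene lists and the tests were chosen with earlier results of these data known, so the lists are described by counts and medians and support no test. The lists asked for 606 symbols, of which 595 were measured. Genes are named by rule: all Erg probe sets, 16 fixed genes, the 12 higher and 12 lower symbols of smallest p and the 6 and 6 of largest difference among those with separate groups and a brighter group above the median, and up to 4 separate members per list. Genes outside it are said to be so, apart from defining markers given by their level, and some genes the rule takes are not reported here. The alternatives were another variance model, probe set choice, scaling, array weights, the replicate number as a block, and each array left out.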

Additional observations from a re-analysis of the deposited data

How the results depend on the processing

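No probe set passed an adjusted p of 0.05 for Erg against control on day 1 in limma under any alternative run, including each of the 8 arrays left out in turn. The count at an unadjusted p under 0.05, 616 as reported, was 769 with a variance trend, 634 after cyclic loess, 572 after a second quantile normalization and 922 with the 4 day 1 arrays alone. The split of 134 higher and 482 lower was 358 and 564 with the 4 arrays alone, 98 and 536 after cyclic loess, and 221 and 203 without Erg day 1 replicate 2. It was 1662 with array weights, and 109, 162 and 182 with dim probe sets left out, with 1 probe set per symbol and with the mean of a symbol's probe sets. Leaving out a control array of day 1 gave 3501 (replicate 1) and 129 (replicate 2), leaving out Erg day 1 replicate 1 gave 219, and leaving out an Erg or a control array of day 0 gave 1246 or 355. The cause of these shifts was not tested. Dim probe sets cannot be told from background with these values, and 2 arrays per group limit the precision.

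For the gap between the Erg differences of both days, leaving out 1 array gave 0 to 356 probe sets at an adjusted p under 0.05, and the 356 arose without Erg day 0 replicate 1. At an unadjusted p under 0.05 the count, 1100 as reported, was 10707 without that array. Other alternatives gave 239 to 2662.

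With the replicate number as a block within each day, 0 probe sets passed for either comparison, and 646 and 581 had an unadjusted p under 0.05. With the block on the 4 day 1 arrays alone, 0 passed and 2951 had an unadjusted p under 0.05. Deviations of same-numbered arrays from their group means correlated at 0.318 on day 1 and -0.613 on day 0, and with 2 pairs a day these values do not settle whether the numbers pair the arrays. A block with the day 0 numbers crossed, added after seeing the data, gave 0 and 1570.

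All 26 list medians were above 0 as reported, against 22 after cyclic loess. Among day 1 arrays, leaving out Erg replicate 1 left 19 above 0, Erg replicate 2 left 24, control replicate 1 left 25 and control replicate 2 left 18. After cyclic loess the sign turned for Acan (-0.012), Ihh (-0.021), Fli1 (-0.011) and Actg2 (-0.018), and with the mean of all probe sets for Etv4 (-0.063) and Pck1 (-0.025). Other probe sets of the same gene gave the opposite sign for Sox5 (-0.016 and -0.083), Sox6 (-0.035), Klf5 (-0.19), Eny2 (0.11), Rassf3 (0.16), Rbmx (0.11), Itga5 (0.24 and 0.18), Tnc (-0.39), Ets1 (0.035), Etv4 (-0.26), Sufu (-0.15 and -0.071), Fzd7 (-0.049), Wnt4 (0.14), Pfkp (-0.19), Fbn1 (-0.083), Mmp16 (-0.056) and Pck1 (-0.22). The causes were not tested.

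With 1 day 1 array left out, the sign turned in at least 1 case for these genes, over the ranges given. They were Sox9 (-0.020 to 0.37), Sox5 (-0.016 to 0.30), Col2a1 (-0.53 to 0.53), Acan (-0.027 to 0.10), Ihh (-0.30 to 0.33), Col10a1 (-0.24 to 0.15), Gdf5 (-0.17 to 0.30), Wnt9a (-0.013 to 0.19), Pthlh (-0.35 to 0.28), Fli1 (-0.12 to 0.22) and Ets1 (-0.16 to 0.063). The range was -0.64 to 1.57 for Mki67, -0.36 to 1.33 for Top2a, -0.83 to 0.94 for Actg2 and -0.79 to 0.69 for Tagln. For Erg it was -0.78 to 0.070 in the first probe set described and -0.30 to 0.11 in the second.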
